A study of Caenorhabditis elegans with 6 samples.

Results

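Cytosolic ribosomal protein genes of the nematode Caenorhabditis elegans were examined in embryos with and without a mutation of dot-1.1. The set holds 60 genes listed by their sequence names, 30 rps genes of the small ribosomal subunit and 30 rpl genes of the large subunit, out of 46659 rows in the count table. All 60 were found in the table, and all 60 passed the filter on low counts, which left 17365 genes for testing. The set is not the whole ribosome: rpl-11.1, rpl-30, rpl-31 and the acidic stalk genes rla-0, rla-1 and rla-2, for example, are outside it and are described separately.

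Embryos came from dot-1.1(knu339); ced-3(n1286) double mutants, called double mutants here, and from ced-3(n1286) single mutants, called single mutants, with 3 biological replicates of each. The gene dot-1.1 codes for a histone methyltransferase related to human DOT1L. CED-3 is the caspase that executes programmed cell death, and its mutation is shared by both genotypes, so no library has an intact ced-3 gene. Eggs were freed from egg-laying adults with alkaline hypochlorite, so a sample is a population of whole embryos, and libraries were made from total RNA after depletion of ribosomal RNA. The labels used here state neither the ages of the embryos nor the nature of the knu339 lesion.

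Each ribosome is built from a small subunit, which reads the messenger RNA, and a large subunit, which joins the amino acids and holds the tunnel through which the new protein leaves. The ribosomal proteins are needed in matched amounts, are made in large quantity in growing cells, and are assembled with ribosomal RNA in the nucleolus. In a C. elegans embryo much of the protein synthesis capacity is supplied by the mother, through ribosomes and messages loaded into the oocyte. Roles given below for single proteins come from yeast and human ribosomes, unless stated otherwise.

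Library totals lay between 66316445 and 77957224 counts. The dot-1.1 transcript itself was present in every library, at 42.4 ± 17.8 CPM (counts scaled to library size) in the double mutants and 49.2 ± 16.3 CPM in the single mutants (SD, n = 3 each), a difference that did not pass the test (adjusted p = 0.806, edgeR), so the genotypes rest on the labels. Rows of the mitochondrial chromosome, which are mostly its ribosomal RNA, held 4.31 to 6.92% of counts in the double mutants and 7.63 to 12.05% in the single mutants, and nuclear ribosomal RNA that escaped depletion held 1.19 to 2.71% and 0.747 to 1.09%. The summed level of 23 genes of late embryonic muscle and pharynx was 7450 to 13000 CPM in the double mutants and 5890 to 7620 CPM in the single mutants. Of the 23, 21 had a log2 fold change above 0, and the median was 0.514. None of the 23 was called without a block, and 9 rose and 0 fell in the fit that pairs replicate numbers, where 2.57% of all genes rose and 1.45% fell. The summed level of 24 oocyte and maternal transcripts was 1730 to 2700 CPM in the double mutants and 2230 to 2480 CPM in the single mutants. Of the 22 that were tested, 19 had estimates below 0, the median was -0.258, 0 were called without a block, and 0 rose and 1 fell with it. The summed level of 19 early zygotic transcripts was 371 to 737 CPM in the double mutants and 515 to 873 CPM in the single mutants. All 17 of them that were tested had estimates below 0, with a median of -0.43, 0 were called without a block, and 0 rose and 1 fell with it. The part of these differences in the results below was not tested, except where values without the ribosomal RNA and mitochondrial rows are given. Yolk protein genes and col-19, markers of adult tissue, were near 0 in both genotypes, and col-19 had no count in the single mutants. Their summed levels were 3.65 to 4.15 CPM in the double mutants and 1.33 to 2.26 CPM in the single mutants. All 6 that were tested had estimates above 0, with a median of 1.836, and 0 were called with or without the block. Major sperm protein genes, markers of sperm, summed to 0.64 to 1.71 CPM and 1.19 to 1.4 CPM. In whole embryos, fewer cells of a kind and less RNA per cell cannot be told apart.

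The 60 genes together took up 2.45, 2.34 and 2.79% of all counts in the double mutants and 2.16, 2.17 and 2.56% in the single mutants. The share was higher in the double mutant within each of the 3 replicate numbers, but the genotypes overlapped, because single mutant replicate 3 lay above double mutant replicates 1 and 2. The means were 2.53% ± 0.233 and 2.3% ± 0.23 (SD, n = 3 each). The difference of 0.228 percentage points was about the size of the SD within a genotype. Without regard to replicate numbers it gave p = 0.3 (exact two-sided permutation test, where 3 against 3 cannot give less than 0.1). With libraries paired by number it gave p = 0.25 (exact sign-flip test). That is the smallest p possible with 3 pairs, so the paired test could not decide. Replicate 3 had the largest share in both genotypes. Mitochondrial and ribosomal RNA make up part of the denominator and moved with genotype. When both were left out of it, the shares became 2.72% ± 0.205 in the double mutants and 2.57% ± 0.207 in the single mutants (SD, n = 3 each; p = 0.5, exact two-sided permutation test). Without double mutant replicate 3 the difference in the share of all counts was 0.0973 percentage points, and without single mutant replicate 3 it was 0.361.

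Within the set, which lists 30 genes of each subunit, small and large subunit genes contributed nearly equal numbers of counts. The cytosolic ribosomal protein genes outside the set, described below, are mostly of the large subunit. Together they held 4500 to 5210 CPM in the double mutants and 4390 to 5190 CPM in the single mutants. The balance over all cytosolic ribosomal protein genes is therefore not given by these ratios. Small subunit genes held 1.28% ± 0.0965 of counts in the double mutants and 1.16% ± 0.114 in the single mutants, and large subunit genes held 1.24% ± 0.139 and 1.14% ± 0.116 (SD, n = 3 each). The ratio of small to large subunit counts was 1.075, 1.046 and 0.991 in the double mutants and 1.027, 1.02 and 1.016 in the single mutants. The single mutant ratios stayed within a narrow band, while double mutant replicates 1 and 2 lay above it and replicate 3 below. On the log2 scale the ratio averaged 0.0522 ± 0.0597 in the double mutants and 0.0297 ± 0.00804 in the single mutants (SD, n = 3 each), and the difference of 0.0224 did not hold up against the replicates (p = 0.6, exact two-sided permutation test). Its sign turned, to -0.0035, without double mutant replicate 1, and it was 0.0034 when the small subunit gene rps-0 was left out.

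**Figure D1:**
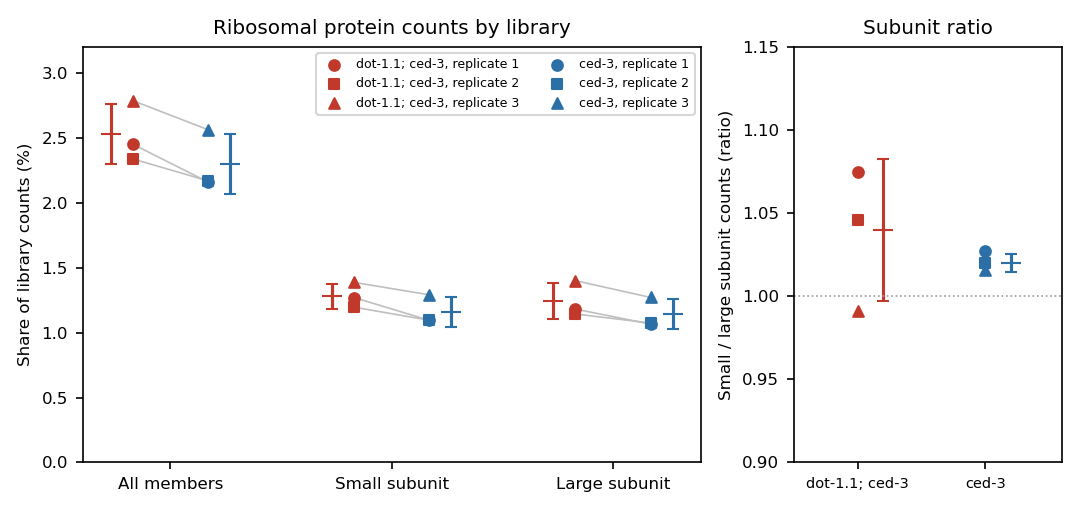
The left panel shows the share of library counts, in percent, taken up by all 60 ribosomal protein genes, the 30 small subunit genes and the 30 large subunit genes, and the right panel the ratio of small to large subunit counts on an axis that does not start at 0. Points are libraries (red, double mutants, and blue, single mutants, with marker shapes for replicate numbers and grey lines joining equal numbers), bars are means ± SD (n = 3). The share of all 60 genes was 2.34 to 2.79% in the double mutants and 2.16 to 2.56% in the single mutants, higher in the double mutant within each number.

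Levels between genes are given as CPM per kilobase of exon, the level scale used to compare genes of different length. Over all 6 libraries the members ranged from 107 to 1540 CPM per kb, a 14.5-fold span, with a median of 617. The median was 662 for small subunit genes and 557 for large subunit genes. Among 15081 tested protein-coding genes ordered by this level, 18 members were within the first 100, 46 within the first 200 and 57 within the first 500, and the median rank of a member was 132.

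The highest level belonged to rps-23 (F28D1.7, chromosome IV, 12390298 to 12391053, WBcel235), whose protein lines the decoding centre. It stood at 1552 ± 104 CPM per kb in the double mutants and 1530 ± 160 in the single mutants (SD, n = 3 each). Next came rpl-23 (B0336.10, chromosome III, 5705525 to 5706127), whose protein sits at the face where the subunits meet, at 1353 ± 93.2 and 1406 ± 175 CPM per kb. Exons of rpl-23 overlap swp-1 on the same strand, so some of its reads may belong to that gene. The protein of rps-9 (F40F8.10, chromosome II, 11125371 to 11126362) helps form the channel through which messenger RNA enters, and its gene had 1367 ± 135 CPM per kb in the double mutants and 1200 ± 169 in the single mutants. The large subunit gene rpl-27 (C53H9.1, chromosome I, 1834883 to 1835438) had 1201 ± 18.2 and 1218 ± 144. The differences between neighbours in this order from rpl-23 to rpl-27 were no larger than about the SDs between replicates. In CPM, rpl-23 had 696.3, 634.3 and 727 in the double mutants and 611.1, 774.4 and 753.2 in the single mutants. The gene rps-9 had 977.8, 810.7 and 954.6 CPM in the double mutants and 715.6, 761.3 and 930.8 CPM in the single mutants. For rpl-27 the values were 545.1, 554.4 and 561.8 CPM in the double mutants and 498.7, 554.6 and 630.9 CPM in the single mutants. The genotypes overlapped in all 3 genes, and the double mutants of rpl-27 lay within the range of the single mutants.

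The lowest level was that of rpl-39 (C26F1.9, chromosome V, 7775742 to 7776079), which codes for a very small protein of the exit tunnel wall, at a mean of 105.9 CPM per kb in the double mutants and 107.1 in the single mutants. The gene rpl-35 (ZK652.4, chromosome III, 7855134 to 7855646), whose protein sits at the mouth of the tunnel, had 127.6 ± 22.9 and 140.8 ± 17.2 (SD, n = 3 each), and rpl-20 (E04A4.8, chromosome IV, 4749123 to 4749778) had 148.1 ± 23.3 and 140.6 ± 23.4. The small subunit gene rps-29 (B0412.4, chromosome III, 794300 to 795031) had 209.5 ± 15.1 and 203.9 ± 7.68. Of these 4 genes, rpl-39 with 236 bp of exon and rps-29 with 265 bp are among the 3 members shorter than 300 bp, close to the fragment length selected for the libraries, while rpl-35 with 460 bp and rpl-20 with 608 bp are not. The part of fragment selection in these levels was not tested. Exons of rpl-39 overlap grl-10 on the other strand. In CPM, rpl-20 had 90.51, 75.65 and 103.9 in the double mutants and 88.3, 70.04 and 98.14 in the single mutants, lowest in replicate 2 and highest in replicate 3 of both genotypes. The gene rps-29 had 59.92, 54.53 and 52.12 CPM in the double mutants and 53.8, 52.12 and 56.17 CPM in the single mutants, a narrow range with the genotypes overlapping.

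**Figure D2:**
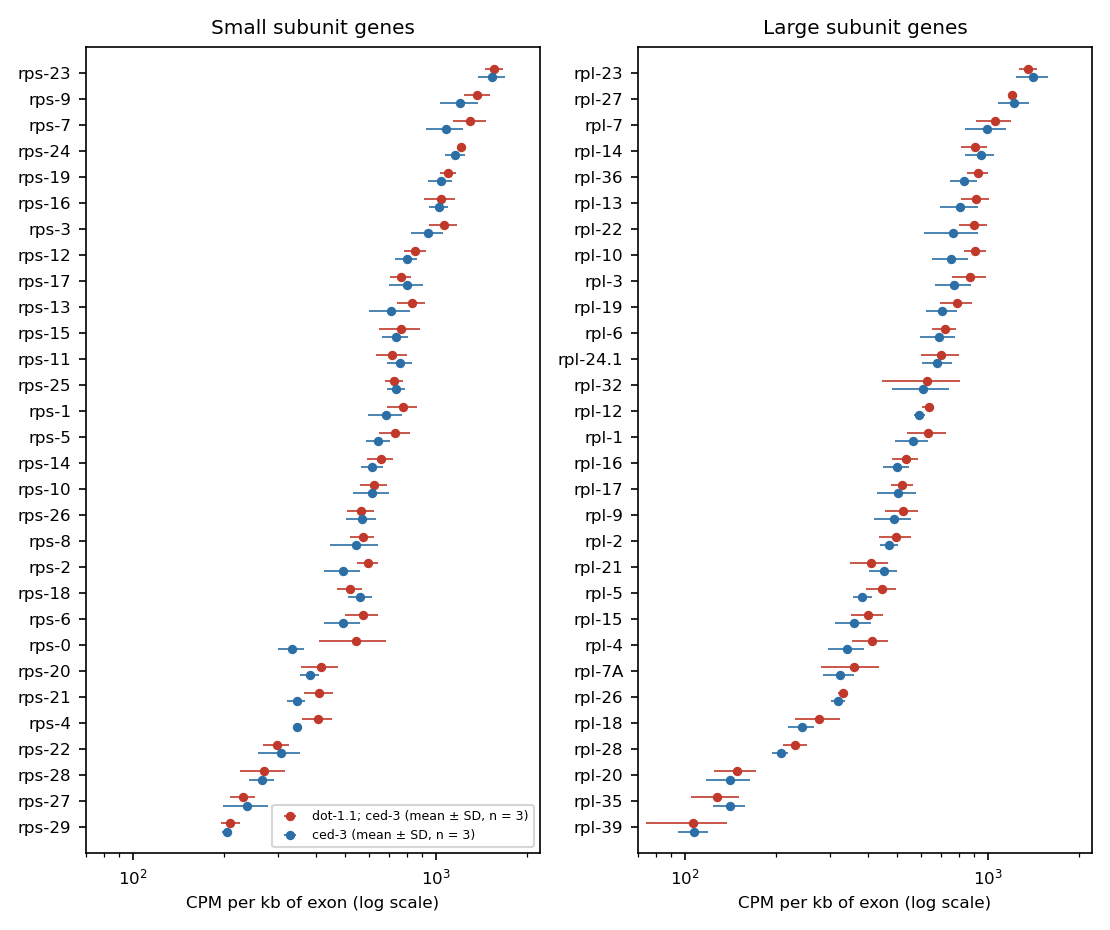
The level of each gene in CPM per kb of exon is drawn on a log axis, small subunit genes on the left and large subunit genes on the right, with double mutants in red above single mutants in blue (mean ± SD, n = 3 each). Levels ran from 107 CPM per kb for rpl-39 to 1540 for rps-23, and for most genes the red and blue bars overlap.

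No member was called in the comparison of double with single mutants. In edgeR's quasi-likelihood test, with a call at an adjusted p under 0.05 over all genes, 0 of 60 members were called higher and 0 lower, where 0.0806% of all genes tested were called higher and 0.0% lower. The lowest adjusted p of a member was 0.226. At an unadjusted p under 0.05, 1 member was higher, rps-0, and 0 members were lower. Of the 17365 genes tested, 2097 had such a p, and 1315 of them, 7.57% of all genes tested, were higher. In the fit with the replicate number as a block, 0 members were again called, where 2.57% of all genes were called higher and 1.45% lower. With the block, 10 members had an unadjusted p under 0.05, all of them higher in the double mutants. Of all genes tested, 4255 had such a p, and 2021 of them, 11.6% of all genes tested, were higher. DESeq2 without a block called 1 member higher, rps-0, and 0 members lower. It called 489 of all genes, and 387 of them were higher, 2.42% of the 16009 genes to which it gave an adjusted p. With the block and without replicate number 2, edgeR called rps-2, rps-21, rpl-10 and rpl-22 higher, 4 of 60 members, where 7.81% of all genes were. Without number 3 it called rps-0, 1 of 60, where 0.913% were.

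The estimates were small and mostly above 0. Of 60 members, 47 had a log2 fold change above 0 and 13 below, against 47.9% of all genes tested above 0. The median was 0.086, which is 1.06-fold, beside a median of -0.016 over all genes. The median was 0.075 for the small subunit, with 23 of 30 genes above 0, and 0.096 for the large subunit, with 24 of 30. Only 4 of 60 members, or 6.67%, lay beyond 1.2-fold in either direction, against 46.3% of all genes tested. Most of the genes tested were less abundant per kb than any member, and the part of abundance in this was not tested. The median over members was 0.17 without single mutant replicate 3 and 0.192 without double mutant replicate 2, and it was 0.047 without double mutant replicate 3.

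Within the replicate numbers, the median difference over the 60 members, double minus single mutant on the log2 scale, was 0.147 in number 1, 0.088 in number 2 and 0.084 in number 3. In number 1, 50 of 60 members were higher in the double mutant, in number 2 there were 46 and in number 3 there were 40. The median over all genes tested was between -0.02 and 0 in each number. In all 3 numbers, 33 members were higher in the double mutant, where 22.5% of all genes were, and 5 were lower, where 25.3% were. In 4 of 60 members every double mutant library lay above every single mutant library, where 10.6% of all genes did, and in 0 members was every double mutant library below, where 7.91% did. Those 4, a smaller share than among all genes, were rps-0, rps-2, rps-4 and rps-21.

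**Figure D3:**
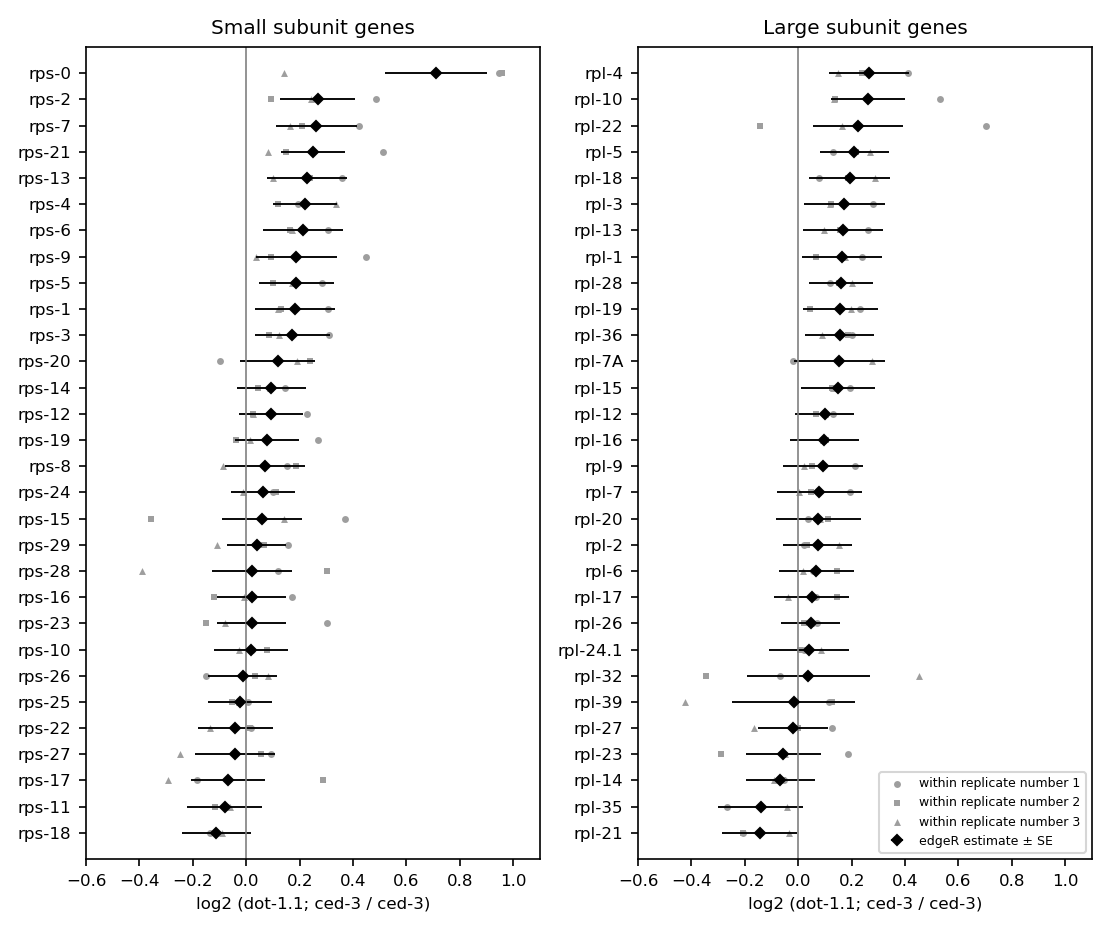
Each row is a gene, with the edgeR estimate of the log2 fold change of double over single mutants (black diamonds, ± SE, 3 libraries of each genotype) and the difference within each replicate number (grey markers). Small subunit genes are on the left and large subunit genes on the right, ordered by estimate. The estimates ran from -0.14 to 0.27 except for rps-0, at 0.71.

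The largest estimate belonged to rps-0 (B0393.1, chromosome III, 4753007 to 4754051), whose protein, related to the human laminin receptor RPSA, sits on the back of the small subunit near the exit of messenger RNA. Its level was 583.2, 507.4 and 349.2 CPM in the double mutants and 302.3, 261.6 and 316.3 CPM in the single mutants. Every double mutant library was above every single mutant library, but replicate 3 of the double mutants was far closer to the single mutants than the others were. The means were 479.9 ± 119 CPM and 293.4 ± 28.4 CPM (SD, n = 3 each), and the log2 fold change was 0.71 ± 0.19 SE, or 1.64-fold (adjusted p = 0.226, edgeR). Within the numbers it was 0.948, 0.956 and 0.143 on the log2 scale. With the block the estimate was 0.68 ± 0.17 (adjusted p = 0.0768, edgeR), and DESeq2 gave 0.72 ± 0.22 (adjusted p = 0.0421). Over the settings tried, the adjusted p lay between 0.0108, with the block and without number 3, and 0.57, without double mutant replicate 1. No annotated gene overlaps its exons.

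The protein of rps-21 (F37C12.11, chromosome III, 7189178 to 7189631) touches that of rps-0 in the yeast ribosome. Its level was 141.6, 116.4 and 120.2 CPM in the double mutants and 99.36, 105.1 and 113.6 CPM in the single mutants. The genotypes did not overlap, by a margin smaller than the spread within either of them. The log2 fold change was 0.25 ± 0.12 SE (adjusted p = 0.451, edgeR). This gene and rps-4, described next, are named because their genotypes do not overlap, after their values were seen.

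For rps-2 (C49H3.11, chromosome IV, 7925298 to 7926391), whose protein helps form the entry channel for messenger RNA, the level was 584.3, 551 and 647.8 CPM in the double mutants and 417.2, 516.3 and 547.4 CPM in the single mutants. The ranges did not overlap, by a margin smaller than the spread within either genotype, and the log2 fold change was 0.27 ± 0.14 SE (adjusted p = 0.473, edgeR). The gene rps-4 (Y43B11AR.4, chromosome IV, 7083696 to 7084682) had 332.6, 308.6 and 383.6 CPM in the double mutants and 290.4, 284.3 and 304.2 CPM in the single mutants, a log2 fold change of 0.22 ± 0.12 SE (adjusted p = 0.498, edgeR). The ranges of rps-4 were also apart by less than the spread within either genotype, and its exons overlap Y43B11AR.3 on the same strand. The protein of rps-7 (ZC434.2, chromosome I, 10330879 to 10331808) belongs to the body of the small subunit, and its gene had 975.1, 780.3 and 983.4 CPM in the double mutants and 727.5, 675.3 and 878.9 CPM in the single mutants. These genotypes overlapped, and the log2 fold change was 0.26 ± 0.15 SE (adjusted p = 0.511, edgeR).

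Estimates of some other small subunit genes, named for their roles, ran from -0.013 to 0.21. Decoding gene rps-23 had 800, 700.1 and 743.4 CPM in the double mutants and 648.6, 777.7 and 786 CPM in the single mutants, so the ranges crossed, and the log2 fold change was 0.020 ± 0.13 SE. For rps-3, the entry channel gene with a helicase role, the log2 fold change was 0.17 ± 0.14, and for rps-9 it was 0.19 ± 0.15. The gene rps-6, whose protein is the substrate of S6 kinase, had 0.21 ± 0.15. Genes at the messenger exit other than rps-0 had 0.18 ± 0.15 for rps-1, 0.094 ± 0.13 for rps-14 and -0.013 ± 0.13 for rps-26. None of these passed the test, and differences between these genes and those above were not tested.

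The lowest estimates of the small subunit were those of rps-18 and rps-11. The tail of the RPS18 protein contacts transfer RNA, and rps-18 (Y57G11C.16, chromosome IV, 14825679 to 14826477) had 312, 281.1 and 340.8 CPM in the double mutants and 342.9, 303.7 and 362.5 CPM in the single mutants. The gene was lower in the double mutant within each number, yet the ranges overlapped widely, because replicate 2 was the lowest of both genotypes and replicate 3 the highest. Its log2 fold change was -0.11 ± 0.13 SE (adjusted p = 0.735, edgeR), and its exons overlap hhat-2 on the other strand. For rps-11 (F40F11.1, chromosome IV, 11602641 to 11603280) the values were 401.4, 339.3 and 425.3 CPM in the double mutants and 422.3, 367.7 and 443.1 CPM in the single mutants, in the same order of replicates, and the log2 fold change was -0.081 ± 0.14 SE (adjusted p = 0.824, edgeR).

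In the large subunit the highest estimate was that of rpl-4 (B0041.4, chromosome I, 4645662 to 4646963), whose protein reaches into the exit tunnel. It had 510.4, 390.1 and 483.5 CPM in the double mutants and 383.5, 330.6 and 436.8 CPM in the single mutants, so single mutant replicate 3 lay above double mutant replicate 2. The log2 fold change was 0.27 ± 0.15 SE (adjusted p = 0.509, edgeR) and 0.27 ± 0.091 with the block (adjusted p = 0.126, edgeR). Near the site of peptide bond formation, rpl-10, whose protein is among the last to join the subunit, had 0.26 ± 0.14, rpl-3 had 0.17 ± 0.15 and rpl-2 had 0.073 ± 0.13. For rpl-5, whose protein carries the smallest ribosomal RNA of the large subunit into place, the value was 0.21 ± 0.13, and its exons overlap bcs-1 on the same strand. In CPM not divided by length, rpl-3 was the largest member, with 1310, 1089 and 1405 CPM in the double mutants and 1080, 1000 and 1294 CPM in the single mutants, and it also has the longest exons, 1456 bp.

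Among other genes of the tunnel, rpl-39 had 28.04, 30.4 and 16.53 CPM in the double mutants and 25.86, 27.83 and 22.16 CPM in the single mutants, with the lowest value in double mutant replicate 3 and a log2 fold change of -0.017 ± 0.23 SE. For rpl-17 the estimate was 0.051 ± 0.14 SE, and rpl-19 and rpl-26, whose proteins lie near the tunnel mouth, had 0.16 ± 0.14 and 0.046 ± 0.11. For rpl-35, also at the tunnel mouth, the level was 53.55, 51.73 and 70.83 CPM in the double mutants and 64.4, 56.99 and 72.85 CPM in the single mutants. It was lower in the double mutant within each number, with overlapping ranges and a log2 fold change of -0.14 ± 0.16 SE (adjusted p = 0.728, edgeR). The lowest estimate of all members was that of rpl-21 (C14B9.7, chromosome III, 8129551 to 8130227), at 223.4, 184.6 and 247.7 CPM in the double mutants and 257.8, 212.9 and 254 CPM in the single mutants. It was also lower within each number, by 0.207, 0.206 and 0.036 on the log2 scale, and its log2 fold change was -0.14 ± 0.14 SE (adjusted p = 0.697, edgeR). Differences between these genes were not tested.

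**Figure D4:**
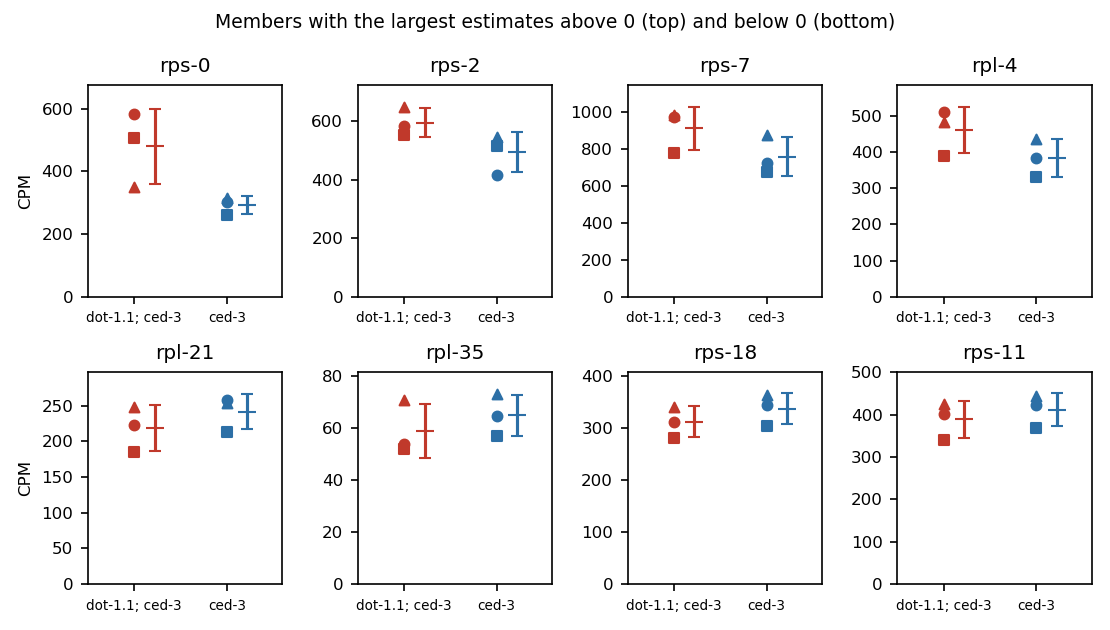
Levels in CPM are shown for the 4 members with the largest estimates above 0 (upper row) and the 4 with the largest below 0 (lower row), double mutants in red left of single mutants in blue, points for libraries with marker shapes for replicate numbers, and bars for mean ± SD (n = 3 each). Only rps-0 and rps-2 have genotypes that do not overlap among these 8 genes, and double mutant replicate 3 of rps-0, at 349.2 CPM, lies near the single mutants at 261.6 to 316.3 CPM.

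The SD of log2 CPM within a genotype had a median of 0.17 over the members and ran from 0.062 to 0.39, beside a median of 0.18 over the 804 protein-coding genes at least as abundant per kb as the lowest member. The steadiest was rpl-12 (JC8.3, chromosome IV, 13239587 to 13240651), a gene of the base of the stalk where elongation factors bind, with 507.4, 485.8 and 532.2 CPM in the double mutants and 463.3, 464 and 497 CPM in the single mutants. The most variable was rpl-32 (T24B8.1, chromosome II, 9056497 to 9057085), with 325.3, 187.8 and 328.5 CPM in the double mutants and 340.7, 238.9 and 240.2 CPM in the single mutants. Its high and low libraries occur in both genotypes, its log2 fold change was 0.038 ± 0.23 SE, and its exons overlap chmp-7 on the other strand. Double mutant replicate 3 was the highest of the 6 libraries for 29 of 60 members, against 17.7% of all genes tested, followed by single mutant replicate 3 for 13 and double mutant replicate 1 for 12. Single mutant replicate 2 was the lowest for 30 of 60, against 17.9% of all genes.

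Longer members had higher estimates. Over the 60 members, log2 exon length and log2 fold change correlated with a Pearson r of 0.46 and a Spearman rho of 0.59, given as a description, since all members come from the same 6 libraries. Without rps-0 the r was 0.47, and over the 54 members of at least 400 bp it was 0.57. In the 20 members shorter than 500 bp the median log2 fold change was 0.020 and 12 were above 0, in the 22 of 500 to 700 bp it was 0.094 with 18 above 0, and in the 18 longer ones it was 0.172 with 17 above 0. The other tested protein-coding genes in these ranges had medians of -0.147, -0.118 and -0.023. The longest range has no upper limit, while the longest member has 1456 bp, so lengths there are not matched. For other genes at least as abundant per kb as the lowest member, the medians were -0.15, -0.11 and 0.052. Estimates were thus higher in longer genes among members and other genes alike, and in each range the members' median was above that of the others. Within replicate numbers the r over members was 0.26, 0.24 and 0.58. Level per kb was not ordered by length in this way. Its Spearman rho with length was -0.013, and on log2 scales the Pearson r was 0.21. Over the 54 members of at least 400 bp that r was -0.15.

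**Figure D5:**
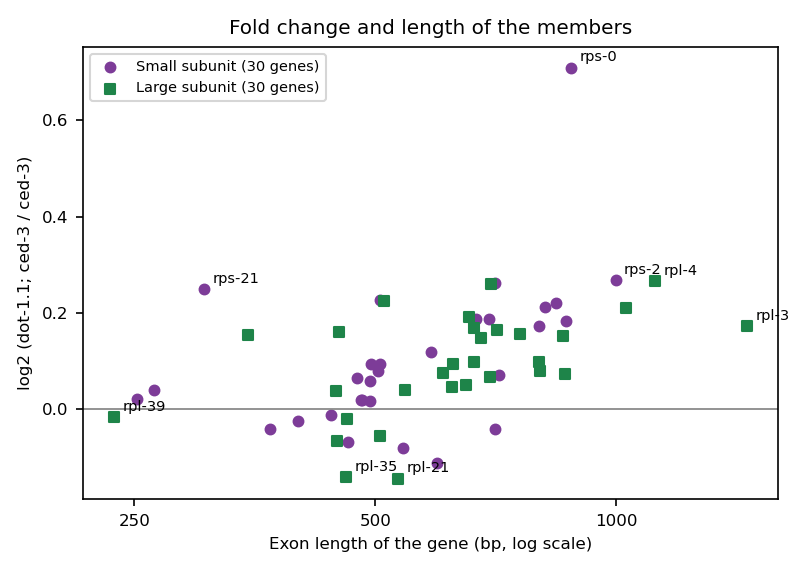
The log2 fold change of double over single mutants is plotted against the exon length of each member in bp on a log axis, with circles for the 30 small subunit genes and squares for the 30 large subunit genes. Estimates were higher for longer genes (Spearman rho of 0.59 over 60 genes), with rps-0 far above the rest at 0.71.

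The members lie on the autosomes, 17 on chromosome I, 17 on III, 15 on IV, 6 on II and 5 on V, and 0 on X, where 15% of the tested protein-coding genes lie. Chromosomes I, III and IV together hold 49 of the 60 members and 46.8% of the tested protein-coding genes. Some are neighbours: rps-10 and rpl-24.1 are 609 bp apart on opposite strands of chromosome I, with log2 fold changes of 0.018 and 0.041, and rps-14 and rpl-36 are 662 bp apart on chromosome III, with rps-21 another 8530 bp on, at 0.094, 0.16 and 0.25. Exons of 14 members overlap those of another annotated gene, 5 of them on the same strand.

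The 22 other cytosolic ribosomal protein genes of the annotation, of which 21 were tested, include the stalk genes and the ubiquitin fusion genes ubl-1 and ubq-2. In this list 0 genes were called in either direction in edgeR, with or without the block, and the median log2 fold change was 0.022, with 12 of 21 above 0. The stalk genes had 0.20 ± 0.15 SE for rla-0, 0.21 ± 0.14 for rla-1 and 0.19 ± 0.14 for rla-2. The lowest estimate was that of rpl-41.1, at 76.16 ± 25.4 CPM in the double mutants and 115.2 ± 23.5 CPM in the single mutants (SD, n = 3 each; log2 fold change -0.60 ± 0.25 SE, adjusted p = 0.406, edgeR). The gene rpl-29 had -0.32 ± 0.18 and rpl-30 had -0.23 ± 0.15. The highest estimate, that of rpl-43, rested on separate libraries, with 65.57, 0.466 and 54.76 CPM in the double mutants and 12.92, 0.615 and 0.549 CPM in the single mutants (log2 fold change 3.1 ± 2.1 SE, adjusted p = 0.591, edgeR). How reads were assigned to this gene is not stated in the labels, so its levels are uncertain. The gene rpl-37 was listed at only 1.09 ± 0.472 CPM and 1.073 ± 0.358 CPM.

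Of 69 genes for mitochondrial ribosomal proteins, 0 were called in either fit. Their median log2 fold change was -0.105, with 15 of 69 above 0, against 47.9% of all genes tested. The 29 of them under 700 bp had a median of -0.145 and the 40 longer ones -0.078, beside the medians of -0.147, -0.118 and -0.023 given above for other protein-coding genes by length. The lowest p in that list belonged to mrpl-1, at 36.54 ± 1.39 CPM in the double mutants and 48.42 ± 3.26 CPM in the single mutants (SD, n = 3 each; log2 fold change -0.41 ± 0.12 SE, adjusted p = 0.276, edgeR). Of 42 translation initiation and elongation factor genes, 0 were called without the block and 1 fell with it, iff-1, a germline copy of the factor eIF5A (log2 fold change -0.47 ± 0.095 SE), where 1.45% of all genes fell, and the median without the block was -0.004. Of 26 genes for ribosome biogenesis and RNA polymerase I, 0 were called without the block and 1 rose with it, where 2.57% of all genes rose. It was rpoa-1, the largest subunit of RNA polymerase I. It had 227.4 ± 21.8 CPM in the double mutants and 159.9 ± 21.2 CPM in the single mutants (SD, n = 3 each; log2 fold change 0.51 ± 0.14 SE, adjusted p = 0.229, edgeR without the block). The gene ncl-1, a repressor of nucleolar size in C. elegans, had 0.27 ± 0.15, and the median of that list was 0.029.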

How the data were processed

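The authors deposited whole-number read counts, not normalized, with a row for each gene and a column for each of 6 libraries, matched to samples through the labels. The submitters' processing notes name HISAT2 2.0.5, StringTie and the build WBcel235. Which program counted the reads, with which strand setting, and how reads mapping to several places were treated is not stated in the labels. Genes with near-identical copies or overlapping exons are therefore uncertain. Names, positions and exon lengths (union of exons) were looked up in Ensembl release 115 (WBcel235), matched by sequence name. Of 46659 rows, 46180 matched 1 gene, 476 none and 3 more than 1, and all 60 members matched. Rows not matched to 1 gene held 0.521% of counts and stayed in the totals.

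Genes were tested across the whole table with edgeR 4.0.16 in R 4.3.3 (filterByExpr, TMM, robust quasi-likelihood test, with genotype alone in the model). The two-sided p-values were adjusted by the Benjamini-Hochberg method over the 17365 genes tested, a call is an adjusted p under 0.05, and SE is derived from the test statistic. CPM values include the TMM factors, and shares use library totals. DESeq2 1.42.0 and the other alternatives are given at the end. Shares and ratios were tested by exact permutation of libraries.

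Replicate numbers were taken to pair the libraries, because deviations from the genotype mean correlated at 0.199, 0.169 and 0.32 between libraries of the same number, above the limit of 0.1 in all 3 pairs, and at -0.239 to 0.0587 between others. Deviations from a genotype mean cancel over its libraries, so high values for equal numbers push the others down, and those are not separate support. The pairing rests on the data, since the labels name no shared day, and values are from the fit without a block unless the block is named. Replicates of a genotype differed by more than sampling noise (chi-square per degree of freedom of 98 to 190). That they are biological replicates rests on the labels, and p-values set differences against the spread between these samples. The biological coefficient of variation was 0.265 without and 0.201 with the block.

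Members, gene lists and tests were chosen with earlier results of these data known. By rule, values in every library are given for the 4 members of highest and of lowest level per kb, the 4 of largest estimate in each direction, and the most and the least variable member. Of the other lists the genes of lowest p are named. The genes rps-21, rps-4, rpl-3 and members given by role alone were added to these. Sequences of the members are not shown.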

Additional observations from a re-analysis of the deposited data

How the results depend on the processing

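Without a block, edgeR called 14 genes of all tested. The count was 26 with library totals as the only scaling, 4 without a filter on low counts, 489 in DESeq2, 697 in edgeR with the replicate block and 2012 in DESeq2 with it. It ran from 1 to 43 with single libraries left out and, with the replicate block, 11, 181 and 2476 with a single number left out. Members called higher were 0 in edgeR with other scalings, without the filter, with the block or with any single library left out, and 0 in DESeq2 with the block. They were 1 in DESeq2 without a block, rps-0, and 0 to 4 with the block and single numbers left out. The 4, or 6.67% of members, without number 2 where 7.81% of all genes were called higher, were rps-2, rps-21, rpl-10 and rpl-22. Without number 3, where 0.913% were, it was rps-0. No setting called a member lower. The median log2 fold change over members stayed above 0 in every setting, between 0.0466 and 0.192, the extremes with double mutant replicate 3 and double mutant replicate 2 left out. With the block and a number left out it was 0.0495 without number 1, 0.115 without number 2 and 0.138 without number 3. The share of counts was higher in the double mutants under all 4 denominators, without rps-0 and with any library left out, by 0.0973 to 0.361 percentage points. Its paired test gave p = 0.25, the smallest possible with 3 pairs (exact sign-flip test). The subunit ratio differed by -0.00349 to 0.0551 on the log2 scale with single libraries left out, the lower end without double mutant replicate 1.

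Of 17 members named by rule, 9 kept their sign in all 16 alternatives and 8 did not. With single libraries left out the log2 fold change ran from -0.0489 to 0.0961 for rps-23, -0.14 to 0.0281 for rpl-23, -0.0854 to 0.0703 for rpl-27, -0.149 to 0.22 for rpl-39, -0.046 to 0.213 for rpl-20, -0.0256 to 0.0941 for rps-29, -0.151 to 0.0373 for rps-11 and -0.0866 to 0.289 for rpl-32. With the block and a number left out, values of the opposite sign were -0.127 for rps-23, 0.068 for rpl-23, 0.0894 for rpl-27, 0.147 for rpl-39, -0.0328 for rps-29 and -0.181 for rpl-32. The sign of rpl-39 also turned, to 0.000183, with ribosomal RNA and mitochondrial rows left out. The causes were not tested. Leaving out those rows, leaving out numbers within the block and leaving out rps-0 were chosen after seeing the data. With 3 libraries of each genotype, differences in the share of counts could not reach p under 0.1.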

Other observations

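Introns of 13 members, 8 of the large and 5 of the small subunit, hold 19 annotated snoRNA genes on the strand of the host. snoRNAs guide the chemical modification of ribosomal RNA, and in animals many are cut from introns of ribosomal protein genes. All 19 had counts, 13 passed the filter, and 0 were called in edgeR with or without the block. Their median log2 fold change was 0.269, with 11 of 13 above 0, against 47.9% of all genes tested, and the SEs of the 13 estimates ran from 0.29 to 0.73. Counts were low. Y24D9A.9, inside rpl-7A, was the most counted, with 223 to 438 counts a library and a log2 fold change of 0.073 ± 0.29 SE. Y43B11AR.7, inside rps-4, had 68, 85 and 102 counts in the double mutants and 64, 56 and 36 in the single mutants (log2 fold change 0.70 ± 0.34 SE, adjusted p = 0.443, edgeR). Reads of an unspliced host message would also count here, and their part was not tested.

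Most genes near rps-0 on chromosome III had estimates below 0. The gene rbg-3, which starts at 4754424, had a log2 fold change of -0.31 ± 0.14 SE (adjusted p = 0.414, edgeR), fbxl-2, which starts at 4757260, had -0.29 ± 0.22 and B0393.8, on the other side, -0.38 ± 0.30. VB0393L.2, farther on that side, had -1.17 ± 1.3 on 0 to 535 counts. The collagen gene col-89 beyond it had 0.25 ± 0.17. None of these passed the test, and the difference between rps-0 and its neighbours was not tested.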
